A study of Mus musculus with 20 samples.

Results

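Trim28 and 8 further genes of histone H3 lysine 9 (H3K9) silencing were followed in newly made RNA of mouse embryonic stem cells whose transcription was blocked. The 9 genes were chosen by name, as all rows of the deposited table that carry a member's symbol, out of 22556 genes. All 9 passed a filter of more than 1 read per kb in at least 1 condition, which 8773 genes passed. The cells were wild-type E14 embryonic stem cells grown in serum with LIF on gelatin, and every group shares this line and culture. The groups were no drug (0 h), DRB at 100 µM for 2 h or 5 h, and triptolide at 10 µM for 1 h or 2 h. DRB inhibits the kinases that release RNA polymerase II into elongation, and triptolide blocks initiation through the TFIIH helicase XPB. In each condition 2 samples were labelled for 10 min with 4-thiouridine at 150 µM and 2 were left unlabelled as background, 20 samples in all. The method, in vivo transcription capture (iTC-seq), captures and sequences the labelled fragments. The deposited table has 1 column per condition, in reads per kilobase of gene (reads per kb), so no value has a replicate error or a test. The study's title sets the question of what follows gene silencing at CpG islands, and the drug columns measure labelled RNA while transcription is blocked.

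H3K9 methylation marks silent chromatin, retroelements and pericentric repeats. KRAB zinc finger proteins bind retroelements and recruit TRIM28 (KAP1), which brings in the methyltransferase SETDB1. SUV39H1 methylates H3K9 at pericentric repeats, and EHMT1 (GLP) and EHMT2 (G9a) act as a heterodimer in euchromatin. The heterochromatin protein 1 (HP1) proteins, made by Cbx5 (alpha), Cbx1 (beta) and Cbx3 (gamma), bind the methylated histone through their chromodomain. ATRX, a remodeller, works with DAXX to place histone H3.3 in repeats and telomeres. In embryonic stem cells TRIM28 and SETDB1 are known for keeping endogenous retroviruses silent.

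The sequences upstream of the start of Trim28, Ehmt1, Ehmt2 and Atrx are shown because these genes had the most divergent values: Trim28 the highest level, Ehmt1 and Ehmt2 as partners that parted after 2 h of DRB, and Atrx the signal least reduced at 5 h of DRB. Each is the 250 bases before a RefSeq start (GRCm38.p6), on the gene's strand and 5′ to 3′. Capitals mark any match, on either strand, to 5 promoter motifs searched for with no mismatch. The letters were GGGCGG for the GC box and CACGTG for the E-box, a site of bHLH factors. They were CCAAT for the box named after these letters, TATAAA for the TATA box and CCGGAAG for the motif of ETS factors. No searched motif contains another. The windows lie at chr7:13023902-13024151 (plus strand) for Trim28, chr2:24919610-24919859 (minus) for Ehmt1, chr17:34898224-34898473 (plus) for Ehmt2 and chrX:105929373-105929622 (minus) for Atrx.
Trim28: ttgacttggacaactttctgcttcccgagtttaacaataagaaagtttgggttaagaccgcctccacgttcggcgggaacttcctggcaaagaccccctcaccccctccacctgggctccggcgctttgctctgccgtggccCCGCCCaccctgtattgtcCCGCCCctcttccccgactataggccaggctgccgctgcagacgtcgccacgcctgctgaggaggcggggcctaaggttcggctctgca
Ehmt1: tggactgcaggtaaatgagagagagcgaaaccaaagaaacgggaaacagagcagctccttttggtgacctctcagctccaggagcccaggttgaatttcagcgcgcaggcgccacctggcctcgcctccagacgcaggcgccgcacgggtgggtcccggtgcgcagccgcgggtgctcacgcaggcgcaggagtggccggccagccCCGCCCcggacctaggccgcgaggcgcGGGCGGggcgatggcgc
Ehmt2: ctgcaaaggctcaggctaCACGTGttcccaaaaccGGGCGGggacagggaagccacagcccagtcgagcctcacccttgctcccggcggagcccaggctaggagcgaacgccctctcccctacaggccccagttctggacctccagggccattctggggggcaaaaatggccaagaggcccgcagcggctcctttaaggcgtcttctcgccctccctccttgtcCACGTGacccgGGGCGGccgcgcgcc
Atrx: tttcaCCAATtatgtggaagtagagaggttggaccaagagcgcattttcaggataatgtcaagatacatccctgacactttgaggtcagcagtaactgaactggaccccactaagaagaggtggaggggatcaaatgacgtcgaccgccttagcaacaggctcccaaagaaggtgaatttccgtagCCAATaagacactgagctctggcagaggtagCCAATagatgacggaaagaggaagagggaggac

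The Trim28 window holds 17 CpG dinucleotides and 2 GC boxes, the Ehmt1 window 26 and 2. The Ehmt2 window shown, the upstream one of 2, holds 18 CpG dinucleotides, 2 GC boxes and 2 E-boxes, and the other window 36, 4 and 1. The Atrx window holds 6 CpG dinucleotides, 3 CCAAT boxes and no match to the GC box letters. Its observed to expected CpG ratio was 0.423, the lowest of 13 windows listed for the 9 genes, beside 0.730 for Trim28, 0.872 for Ehmt1 and 0.640 and 0.827 for Ehmt2. Of the 13 windows, 10 were CpG-rich (over 50% GC and a ratio over 0.6), against 30.8% of all 32851 RefSeq windows. GC box letters were in 11 of the 13 windows and 32.7% of all, CCAAT in 4 and 33.9%, the E-box in 3 and 6.02%, the ETS motif in 1 and 6.91%, and TATAAA in 0 and 12.4%. These matches describe letters only, and several windows of 1 gene share a locus.

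The recovered net reads of the whole table summed to 1225549 without drug and to 26.9%, 7.65%, 5.99% and 4.995% of that after DRB 2 h and 5 h and triptolide 1 h and 2 h. Depth and loss of transcription cannot be told apart, because the sources used here do not say whether read numbers were equalised. In a bulk sample fewer cells of a type and less RNA per cell cannot be told apart either. All 6 stem cell markers looked at were above 1 read per kb without drug, from 8.64 to 69.6. The 6 fibroblast and feeder markers summed to 0.444 and the 4 primitive endoderm markers to 0.159 reads per kb, with 4 and 2 listed at 0. The 4 neural markers summed to 18.8, with 3 above 1 read per kb. Brackets give exact 95% Poisson intervals from net reads, which cover counting error only and leave out the subtraction of background.

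Without drug, Trim28 was by far the most transcribed of the 9 per kb, the HP1 genes followed, and Atrx was lowest. Trim28 (chromosome 7, 13024152 to 13031035, plus strand, the 6.9 kb span that the deposited values fit) was at 85.4 reads per kb (78.7 to 92.6), above 99.1% of the 8773 genes. Cbx1 (chromosome 11, 96789127 to 96808640) was at 16.1 (14.4 to 18.0) reads per kb, Cbx5 (chromosome 15, 103191544 to 103239816) at 10.0 (9.17 to 10.98) and Cbx3 (chromosome 6, 51470360 to 51483704) at 9.59 (8.00 to 11.4). Next in order were the methyltransferase genes, with Suv39h1 (chromosome X, 8061171 to 8074760) at 6.55 (5.26 to 8.06) reads per kb and Setdb1 (chromosome 3, 95323525 to 95357202) at 4.22 (3.55 to 4.97). Ehmt1 (chromosome 2, 24789928 to 24919614) was at 4.07 (3.73 to 4.43) and Ehmt2 (chromosome 17, 34898469 to 34914052) at 3.34 (2.49 to 4.38) reads per kb. Atrx (chromosome X, 105797615 to 105929403) was at 1.97 (1.74 to 2.23), above 28.8% of the genes. Intervals of neighbours in this order overlapped for Cbx5 and Cbx3, Cbx3 and Suv39h1, Setdb1 and Ehmt1, and Ehmt1 and Ehmt2, and were apart for the other 4 pairs of neighbours.

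**Figure D1:**
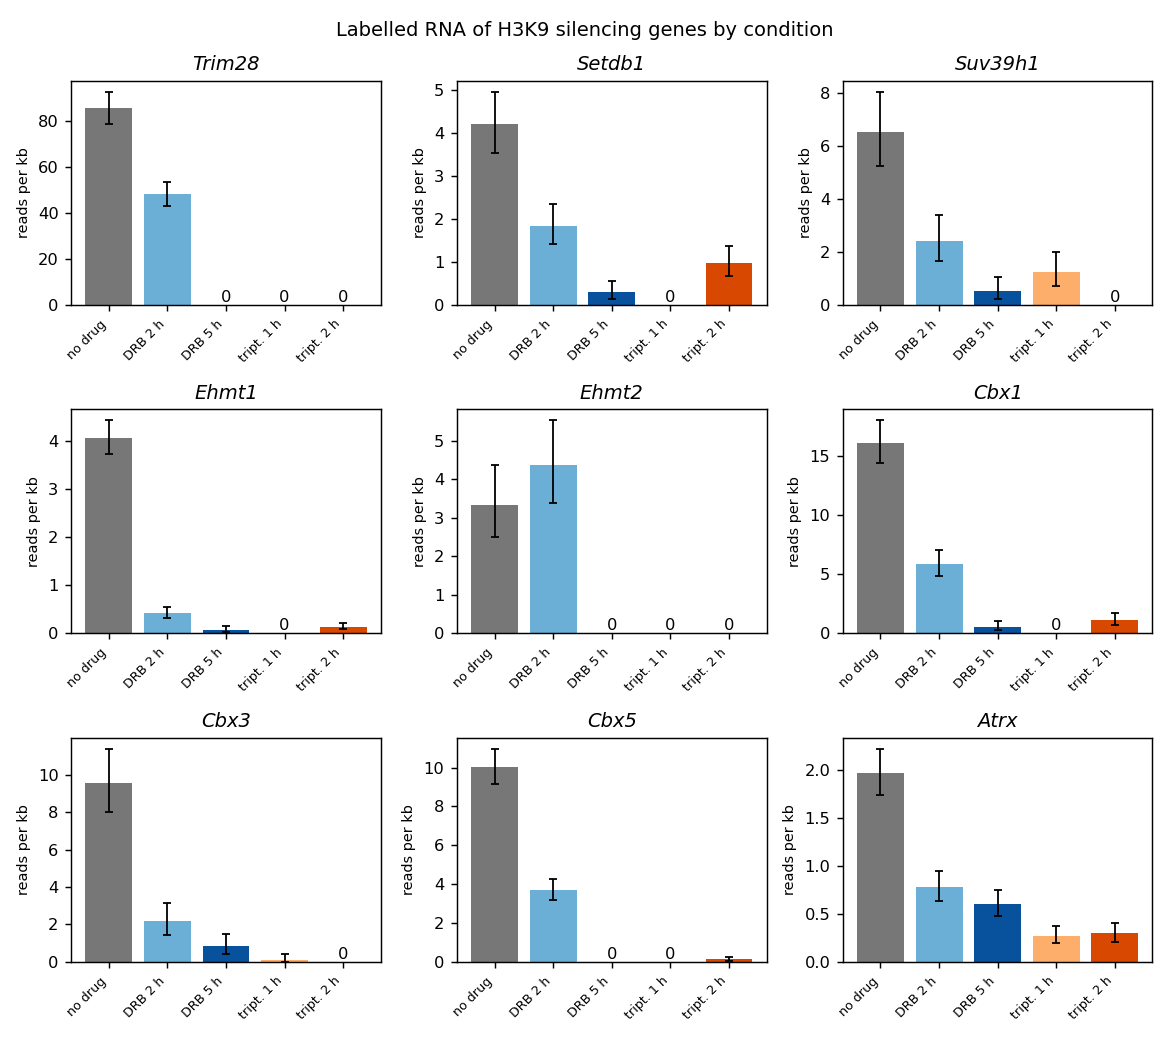
Labelled RNA of the 9 genes in reads per kb (vertical axis, own scale per gene) in each of the 5 condition columns. Bars are the deposited values, error bars are exact 95% Poisson intervals of net reads, and 0 marks a value listed at 0. Trim28 stands at 85.4 reads per kb without drug and is listed at 0 in 3 drug columns, whereas Atrx has signal in all 5.

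Trim28, the corepressor that KRAB zinc finger proteins recruit, went from 85.4 to 48.1 reads per kb after 2 h of DRB. It was listed at 0 in the 5 h DRB column and in both triptolide columns. It was thus high in 2 columns, with 588 and 331 net reads, and had no net signal in the other 3. After 2 h of DRB it kept 56.3% (49.1 to 64.5) of its no-drug level, a share above that of 90.8% of the 7002 genes with at least 20 net reads without drug. Its level after 2 h of DRB was above that of 99.6% of the 8773 genes, and no other member came near it there.

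Setdb1, the methyltransferase that TRIM28 brings to retroelements, was at 4.22 reads per kb without drug. With DRB it stood at 1.84 (2 h) and 0.297 (5 h), and with triptolide at 0 (1 h) and 0.980 (2 h) reads per kb. After 2 h of DRB it kept 43.7% (31.9 to 59.2) and after 5 h 7.04% (3.31 to 13.3). Its triptolide values ran against the order of the times, with 0 net reads at 1 h and 33 at 2 h, or 23.2% (15.4 to 34.1) of no drug. That share was above 95.5% of the 7002 ranked genes. In GENCODE M21 the other strand holds Gm37500, an unclassified transcript (1073 bases of overlap), the pseudogene Gm42578 (194 bases) and Cers2 (75 bases). Only Cers2 has a row in the table, at 0 in the 5 h DRB column and both triptolide columns.

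Suv39h1, the pericentric H3K9 methyltransferase, was at 6.55 reads per kb without drug. With DRB it stood at 2.43 (2 h) and 0.515 (5 h), and with triptolide at 1.25 (1 h) and 0 (2 h) reads per kb. The triptolide order was the reverse of that of Setdb1, with 17 net reads at 1 h, or 19.1% (10.7 to 32.3) of no drug, and none at 2 h. An antisense transcript, Gm14820, covers 13449 bases of the gene. Whether strand was used in counting is not given in the sources used here, so reads of both strands cannot be told apart.

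Ehmt1 and Ehmt2 make the 2 partners of the GLP and G9a heterodimer and parted after 2 h of DRB. Ehmt1 was at 4.07 reads per kb without drug, at 0.419 (2 h) and 0.0776 (5 h) with DRB, and at 0 (1 h) and 0.140 (2 h) with triptolide. Ehmt2 was at 3.34 reads per kb without drug, 4.36 after 2 h of DRB, and 0 in the other 3 columns. Ehmt1 was the member that kept least after 2 h of DRB, 10.3% (7.64 to 13.7), and Ehmt2 the one that kept most, 131% (89.8 to 191). These intervals do not overlap, while that of Ehmt2 includes 100%, so a rise of Ehmt2 is not shown. Only 2.64% of the 7002 ranked genes were at or above their no-drug level at that time. Ehmt2 rests on 52 and 68 net reads, the fewest without drug among the 9, and overlaps no other gene in GENCODE M21. Ehmt1 overlaps 2 unclassified transcripts on its own strand, Gm37139 (4419 bases) and Gm38147 (1798 bases).

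The HP1 genes, whose proteins read the H3K9 mark, kept from 22.7% to 36.7% of their signal after 2 h of DRB. Cbx1 was at 16.1 reads per kb without drug, at 5.84 (2 h) and 0.564 (5 h) with DRB, and at 0 (1 h) and 1.13 (2 h) with triptolide. Cbx3 went, in the same order, from 9.59 reads per kb to 2.17 and 0.824 with DRB and to 0.0749 (1 net read) and 0 with triptolide. Cbx5 was at 10.0 reads per kb, 3.69 and 0 with DRB, and 0 and 0.124 with triptolide. After 2 h of DRB Cbx1 kept 36.2% (28.95 to 44.97), Cbx5 36.7% (30.7 to 43.7) and Cbx3 22.7% (14.6 to 34.1), with overlapping intervals. After 5 h Cbx3 was at 8.59% (4.19 to 15.9) and Cbx1 at 3.49% (1.73 to 6.33), again with overlapping intervals, and Cbx5 was listed at 0 from 485 net reads without drug. Cbx3 has 8 pseudogenes named after it in the annotation. Reads shared with such copies could have been split or lost in counting, so the values of Cbx3 are uncertain. A processed pseudogene, Gm11517, overlaps 387 bases of Cbx1 on the other strand.

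Atrx, the H3.3 remodeller, had the lowest level without drug and was the 1 member with signal in every column. It was at 1.97 reads per kb without drug, at 0.782 (2 h) and 0.599 (5 h) with DRB, and at 0.273 (1 h) and 0.296 (2 h) with triptolide. The columns held 260, 103, 79, 36 and 39 net reads in that order. It kept 39.6% (31.2 to 49.96) after 2 h of DRB and 30.4% (23.3 to 39.2) after 5 h, and the later share was above that of 94.9% of the ranked genes. After triptolide it kept 13.8% (9.49 to 19.7) at 1 h and 15.0% (10.4 to 21.1) at 2 h, with a ratio of the later to the earlier time of 1.08 (0.671 to 1.75). On its own strand a processed pseudogene, Gm14853, overlaps 549 bases of the gene, and 2 snRNA genes overlap it on the other strand, so their reads cannot be told apart from its own.

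**Figure D2:**
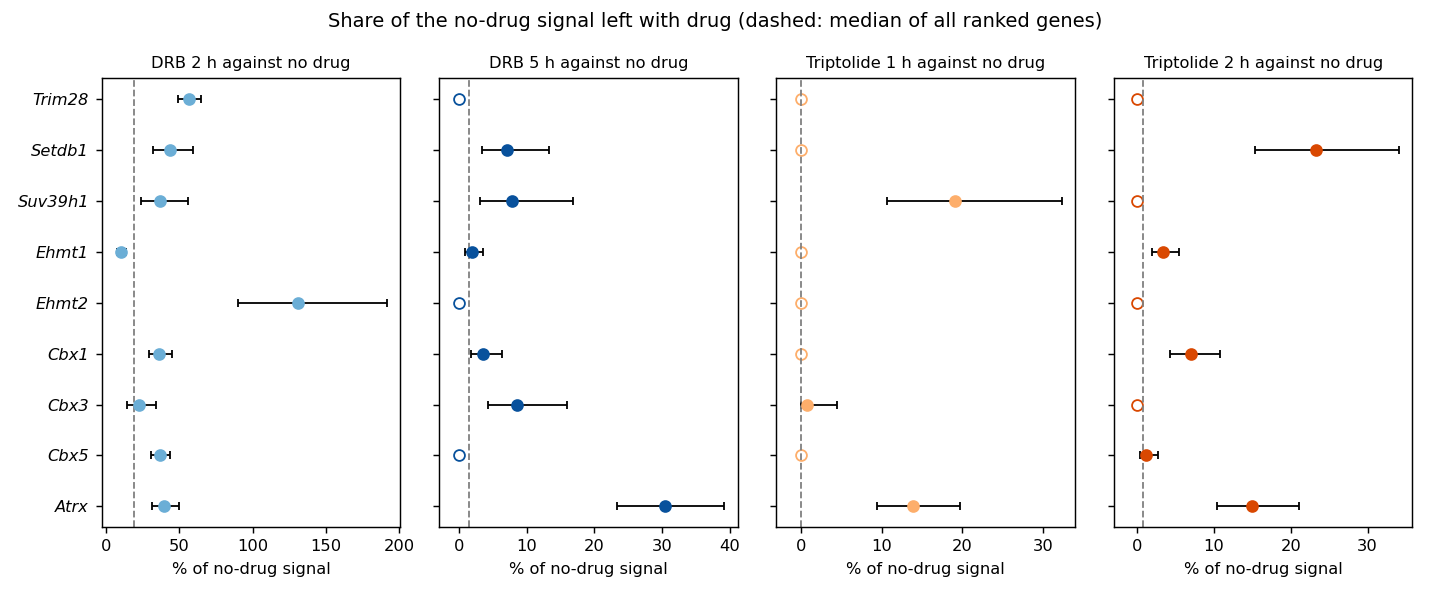
Percent of the no-drug signal left in each drug column (horizontal axis) for the 9 genes, with exact 95% Poisson intervals of the ratio of net reads; open circles are genes listed at 0. The dashed line is the median of 7002 genes with at least 20 net reads without drug, at 19.4%, 1.48%, 0% and 0.848%; 8 of 9 genes lie above it after 2 h of DRB, Ehmt1 being the exception.

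Against no drug, 5 of the 9 genes (Suv39h1, Ehmt1, Cbx1, Cbx3 and Cbx5) were lower after 2 h of DRB by at least 1 on the scale log2(value + 1), none was higher, and 66.1% of all 8773 genes were lower and 2.20% higher. The median log2 difference was -1.14 over the 9 genes and -1.27 over all. These counts rest on the deposited scale. With columns scaled to equal medians 0 of the 9 were lower and 2, Trim28 and Ehmt2, higher (1759 lower and 1441 higher over all genes), and with quantile normalization 0 and 1 (560 and 656). These scalings moved the median of all genes to -0.08 and -0.02. Of the 5 genes lower as deposited, Suv39h1, Cbx1 and Cbx5 changed sign under both scalings, and Cbx3 only with equal medians. Trim28, Setdb1 and Atrx also changed sign under both. By net reads the 9 together went from 2583 to 972, or 37.6% (34.9 to 40.5), of which Trim28 held 331. Of 36 pairs of members, 18 had intervals of the percent kept that did not overlap, and 15 of these 18 involved Ehmt1 or Ehmt2.

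After 5 h of DRB 8 of the 9 were lower, all but Atrx, against 85.5% of all genes, and none was higher, against 1.03%. The median log2 difference was -2.32 over the 9 and -1.86 over all genes, and Trim28, Ehmt2 and Cbx5 were listed at 0, as were 45.8% of the ranked genes. With 1 added to each value, the log2 difference depends on the starting level. By share kept, 6 of the 9 lay above the median of 1.48% of the ranked genes. Atrx kept 30.4% (23.3 to 39.2), had a log2 difference of -0.89 and held 79 of the 128 net reads of the 9 genes. Its low starting level holds it within the size rule. With a pseudocount of 0.1 it was at -1.57 and all 9 were lower, against 92.4% of all genes. Scaled to equal medians 3 were lower and 5 higher (4036 and 3971 over all genes), and with quantile normalization 2 and 1 (1421 and 1303); Trim28 was lower in both and Atrx higher in both. From 2 h to 5 h of DRB 6 of 9 were lower, against 29.7% of all genes, and none was higher, against 1.13%. A gene below 1 read per kb at 2 h cannot be called lower on this scale, and the median of all genes there was 0.766. The 2 shares thus depend on the starting level. By net reads the 9 together kept 13.2% (10.87 to 15.85) of their 2 h signal. As pooled shares of no drug, the 9 went from 37.6% at 2 h to 4.96% at 5 h and the whole table from 26.9% to 7.65%. Gene by gene, the median share of the 2 h signal was 12.8% over 3436 ranked genes. The middle share of the 9 was that of Setdb1. Setdb1 went to 16.1% (7.37 to 31.7) of its 2 h level and Cbx1 to 9.65% (4.69 to 17.9), while Atrx stayed at 76.7% (56.5 to 104), an interval that includes 100%. Scaled to equal medians 3 of the 9 were lower and 5 higher (3175 and 4110 over all genes), and with quantile normalization 3 and 0 (1286 and 988).

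After 1 h of triptolide all 9 genes were lower, against 87.9% of all genes, and 6 were listed at 0, as were 59.1% of the ranked genes. None was higher, against 0.787%. Suv39h1, Cbx3 and Atrx had 17, 1 and 36 net reads, together all 54 reads of the set. After 2 h all 9 were again lower, against 87% of all genes, with 4 listed at 0 and 47.6% of the ranked genes; none was higher, against 0.866%. The 118 net reads were those of Atrx (39), Setdb1 (33), Cbx1 (22), Ehmt1 (18) and Cbx5 (6). The median log2 differences were -2.38 and -2.92 over the 9 and -1.98 and -1.92 over all genes. These too depend on the starting level. By share kept, 3 and 5 of the 9 lay above the medians of 0% and 0.848% of the ranked genes. The drug comparisons share the no-drug column. Scaled to equal medians the 1 h column gave 7 lower and 1 higher (5731 and 845 over all genes) and the 2 h column 4 and 5 (4147 and 4201). Quantile normalization gave 3 and 2 (1596 and 1602) at 1 h and 2 and 2 (1519 and 1458) at 2 h.

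Between 1 h and 2 h of triptolide Cbx1 was higher, against 3.35% of all genes, from 0 to 1.13 reads per kb. Suv39h1 was lower, against 3.03%, from 1.25 to 0, and the other 7 were within the size rule. Of these, Setdb1 missed it narrowly at 0.99, from 0 to 33 net reads, beside 1.09 and 0 to 22 net reads for Cbx1. Equal medians gave 5 higher and 1 lower (4332 and 1127 over all genes) and quantile normalization 2 and 1 (1211 and 1132). At the shared time of 2 h, 6 of the 9 genes were higher with DRB than with triptolide, against 33.2% of all genes, and none was lower, against 1.04%. A gene below 1 read per kb with DRB cannot be called higher on this scale, and the median of all genes there was 0.766, so these shares depend on the level. Trim28 had 48.1 reads per kb with DRB and Ehmt2 4.36, both being listed at 0 with triptolide, and Cbx5 had a ratio of 29.7 (13.4 to 81.9). The smallest ratio was that of Setdb1, 1.88 (1.21 to 2.96), followed by Atrx at 2.64 (1.81 to 3.92) and Ehmt1 at 3 (1.73 to 5.44), and all 3 intervals lie above 1 as deposited; all 3 genes were lower with DRB under both rescalings. Equal medians gave 4 higher and 4 lower members (3355 and 4189 over all genes) and quantile normalization 5 and 1 (1448 and 1360).

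The counted lengths of the 9 genes ran from 6.9 kb for Trim28 to 128.8 kb for Ehmt1 and 131.8 kb for Atrx. Ehmt1 and Atrx are thus of nearly equal length, yet after 5 h of DRB Ehmt1 kept 1.91% (0.910 to 3.54) and Atrx 30.4%. After 2 h of triptolide Ehmt1 kept 3.44% (2.02 to 5.48) and Atrx 15.0%, with intervals apart at both times. Among 391 ranked genes over 100 kb the median share was 3.62% after 5 h of DRB (quartiles 0.596% and 9.27%) and 2.70% after 2 h of triptolide (quartiles 0.173% and 5.77%). Atrx lay above the upper quartile in both and Ehmt1 between the quartiles in both. Of 1633 ranked genes under 10 kb, the class of Trim28, 57.9% were listed at 0 after 5 h of DRB and 59.5% after 2 h of triptolide. Over the 9 genes Spearman's rho between length and percent kept was -0.25, 0.17, -0.07 and 0.77 after DRB 2 h and 5 h and triptolide 1 h and 2 h. Genes listed at 0 entered with tied shares. Of the 9 these were 3 after DRB 5 h, 6 after triptolide 1 h and 4 after triptolide 2 h. Over the 7002 genes rho was -0.08, 0.15, 0.10 and 0.13. Pearson's r with log10 length was -0.38, 0.48, 0.12 and 0.45 over the 9 and -0.11, 0.05, 0.05 and 0.02 over the 7002. These describe genes that share the same libraries, and length also sets the unit and the number of reads.

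**Figure D3:**
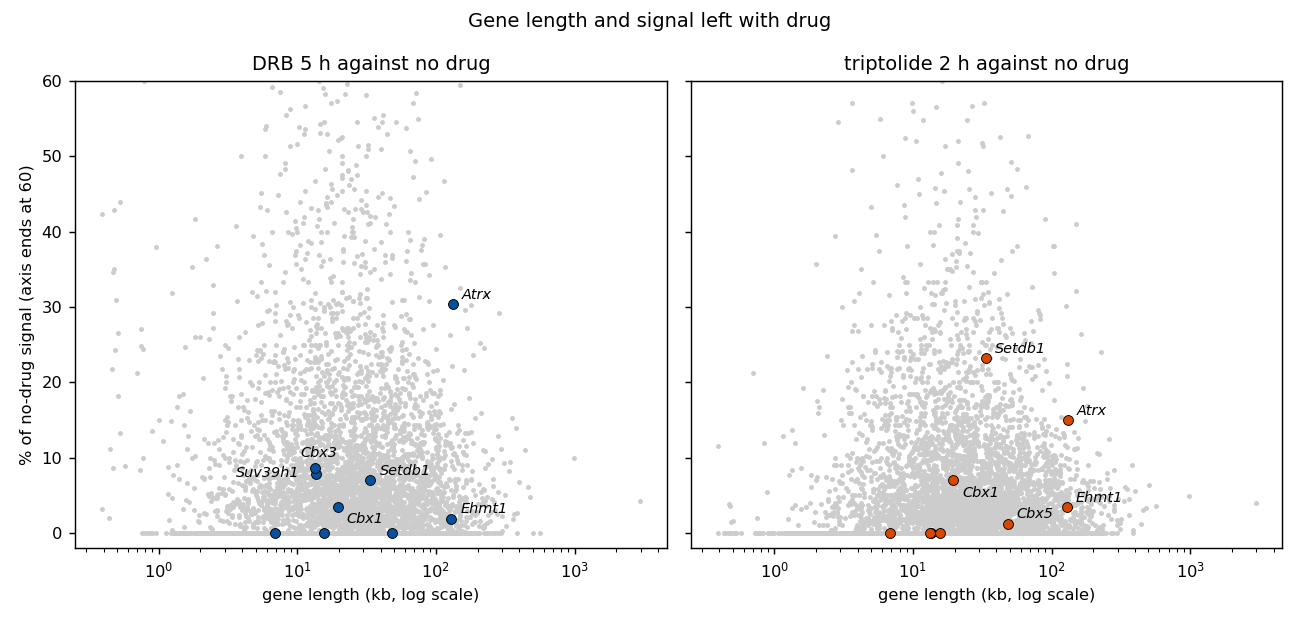
Gene length in kb (log axis) against percent of the no-drug signal left after 5 h of DRB (left) and 2 h of triptolide (right); grey points are the 7002 ranked genes, large points the 9 genes, and unnamed large points are listed at 0. The axis ends at 60%, which 117 and 53 genes exceed. Atrx, at 131.8 kb, lies at 30.4% and 15.0% and Ehmt1, at 128.8 kb, at 1.91% and 3.44%.

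The genes with the most similar pattern were found by the distance over 4 drug columns of log2 net reads (plus 1) relative to no drug, among 5025 genes with at least 50 net reads without drug. For Trim28 these were Tubb5, a beta-tubulin gene (distance 0.27), Eef2, a translation elongation factor gene (0.28), and Wdr82, a subunit gene of SET1 methyltransferase complexes (0.32). All 3 were listed at 0 in the same 3 columns, and Tubb5 went from 125 to 81.3 reads per kb after 2 h of DRB. For Setdb1 they were Grtp1 (0.37), Spast, the gene of a microtubule-severing enzyme (0.77), and Emc1, an ER membrane complex gene (0.79). Grtp1, like Setdb1, had 0 net reads after 1 h and 27 after 2 h of triptolide. For Atrx they were Stk30 (0.28), Fbxo36 (0.40) and Zcchc2 (0.51), with counted lengths of 33.1, 60.6 and 43.7 kb.

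Of 51 further genes of the H3K9 pathway in 6 lists, 40 passed the filter. After 2 h of DRB 33 of the 40 were lower and none higher, beside 66.1% and 2.20% of all genes, with a median log2 difference of -1.41 (all genes -1.27). In each of the other 3 drug columns 39 of 40 were lower and none higher, beside 85.5%, 87.9% and 87% lower over all genes, with medians of -2.16, -2.42 and -2.27 (all genes -1.86, -1.98 and -1.92). Counts and medians on this scale depend on the starting level, as for the 9 genes, and the lists were not counted on the rescaled columns. The lists kept 22.7% (21.7 to 23.7) of their net reads after 2 h of DRB, next to 37.6% for the 9 genes, and 4.89%, 2.32% and 2.11% in the later columns.

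After 2 h of DRB the 40 pathway genes kept from 0 to 95.3%, with 3 listed at 0, beside 5.07% of the 7002 ranked genes. The 9 genes kept from 10.3% to 131%. H3f3b, one of the genes of the histone H3.3 that ATRX deposits, had 13.4 reads per kb where no drug gave 14.05, a share of 95.3% (69.4 to 131). H3f3a, the other gene, kept 10.3%. Dnmt1, the maintenance DNA methyltransferase, went from 9.19 to 6.72 reads per kb, a share of 73.1% (63.6 to 84.1). Asf1a, an H3 chaperone gene, and Mphosph8, a HUSH complex gene whose protein binds methylated H3K9, went to 0 from 8.24 and 3.19 reads per kb. Daxx, the partner of ATRX, went from 13.8 to 5.67 reads per kb. After 5 h of DRB H3f3b kept 29.4% (18.0 to 46.4) and Rlf, a zinc finger protein gene, 25.3% (15.4 to 39.9), and these were the highest of the 40.

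Zfp57, a KRAB zinc finger gene that recruits TRIM28 to imprinted regions, and Uhrf1, which guides DNMT1, had 28.1 and 23.0 reads per kb without drug. Both were listed at 0 after 5 h of DRB and in both triptolide columns, as Trim28 was. These are the highest without drug among 17, 22 and 17 of the 40 genes listed at 0 there, beside 45.8%, 59.1% and 47.6% of the ranked genes. After 1 h of triptolide the highest shares were those of Kdm4a, an H3K9 demethylase gene, at 26.9% (18.0 to 39.4) and of D14Abb1e (Fam208a), a HUSH complex gene, at 8.57% (5.21 to 13.4). After 2 h they were those of Hdac2, a histone deacetylase gene, at 13.2% (5.81 to 26.6) and Morc2a, a HUSH-associated ATPase gene, at 11.7% (6.05 to 20.9). By list, the members lower after 2 h of DRB were 4 of 5 methyltransferases and partners, 5 of 5 HUSH and MORC genes and 10 of 14 HP1 and TRIM28 partners. The same count was 5 of 7 for ATRX partners and H3.3, 2 of 2 for KRAB zinc finger genes and 7 of 7 for H3K9 demethylases, beside 66.1% over all genes.

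**Figure D4:**
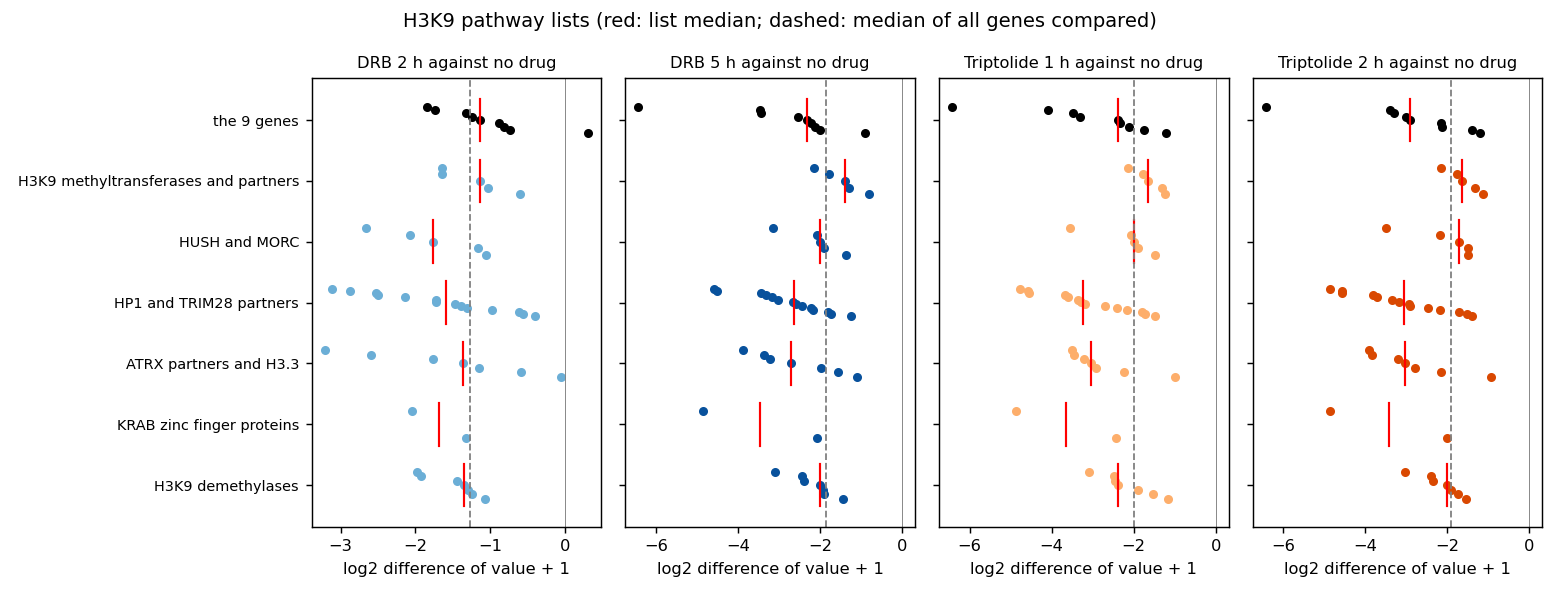
Log2 difference of value plus 1 against no drug (horizontal axis) for the 9 genes (black) and 6 further lists (coloured) in the 4 drug columns; each point is a gene past the filter. Red lines are list medians and the dashed line the median of all 8773 genes; after 2 h of DRB the 9 genes had a median of -1.14 and the 40 pathway genes of -1.41, beside -1.27 over all.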

How the data were processed

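Drug, time and labelling in the labels define 10 groups of 2 samples. The submitters' processing notes name Bowtie and GRCm38/mm10, and per the file headers the genes come from Ensembl release 72. Each deposited value is a signal, the reads per kb of a protein-coding gene, with negatives set to 0 per the name of the deposited sheet. Not given in the sources used here are how replicates and unlabelled libraries were combined, whether strand was used, and the depth of each sample. Each gene's 5 values are whole multiples of 1000 divided by a length. A length was found for 17511 of 17512 genes with signal: the GENCODE M21 span in 10265, a transcript span in 1142, the RefSeq span in 983, within 20% of the span in 4616 and the smallest possible length in 505. Net reads follow from it and may be a fraction of the true number in the last class. In the class within 20% the multiple of the smallest possible length nearest the span was taken, so its net reads rest on that choice. Ehmt1 and Atrx are in this class, and the net reads of Ehmt1 are all even. Shares kept do not depend on the choice, but intervals do. For Trim28 the fitted length is that of its main transcript, not the longer M21 gene.

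Genes above 1 read per kb in 1 condition were compared on log2(value + 1) with no rescaling, and a difference of at least 1 is the size rule. With 1 column for each condition the planned limma fit was not possible, and no test is given. Intervals are exact (Clopper-Pearson) 95%. Genes listed at 0 get no fold. Named pathway genes are the 2 lowest and 2 highest shares per drug column; others named (H3f3a and Daxx) were chosen after their values were seen. Members and lists were chosen with earlier results of these data known. Protein sequences were not used here. Steps were run on simulated Poisson counts, with the true length given as the span and no background subtracted. Finding a length without a matching span, and intervals after subtraction, were thus not tested. Python 3.11.15, scipy 1.17.1 and pandas 2.3.3 were used.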

Additional observations from a re-analysis of the deposited data

Results flagged for a closer look

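Ehmt2 was at 131% of its no-drug value after 2 h of DRB and listed at 0 after 5 h, so that its values moved in opposite directions at the 2 times of one drug. The difference was not tested, since each condition has 1 column, and the interval at 2 h (89.8 to 191) includes 100%.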

How the results depend on the processing

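No paired analysis was possible because the table has 1 column per condition, so leaving out a replicate was not possible either. Without the filter, or with a minimum of 20 net reads, all 63 log2 differences of the 9 genes had the same call by the size rule, and a pseudocount of 0.1 left 53 of 63 with the same call and reversed none. With it 4 genes instead of 1 were higher from 1 h to 2 h of triptolide (23.7% of all genes). After 2 h of DRB 7 genes instead of 5 were lower (80.5% of all genes), with Setdb1 at -1.15 and Atrx at -1.23. After 5 h of DRB 9 instead of 8 were lower (92.4%), with Atrx at -1.57. From 2 h to 5 h of DRB 8 instead of 6 were lower (64.7%). At 2 h, 8 instead of 6 were higher with DRB than with triptolide (68.7%). A pseudocount of 10, large beside most levels, left 0 genes lower after 2 h of DRB, 3 after 5 h, 3 and 2 for triptolide at 1 h and 2 h, 1 from 2 h to 5 h of DRB, 0 lower and 0 higher between the triptolide times, and 1 higher with DRB than triptolide.

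Scaling to equal medians multiplies the columns by 4.50 (DRB 2 h), 91.8 (DRB 5 h), 12.8 (triptolide 1 h, from values above 0, its median being 0) and 229 (triptolide 2 h), since most genes lie near 0 there, and assumes that most genes are unchanged. It then left 0 genes lower after 2 h of DRB, 3 after 5 h, 4 after 2 h of triptolide, 3 from 2 h to 5 h of DRB, gave 5 higher from 1 h to 2 h of triptolide, and 0 of 9 genes (8 as deposited) had their highest level without drug. Of the 45 log2 differences past the size rule it reversed 21, and of the 18 within it 10 changed sign, among them after 2 h of DRB Trim28 (1.33), Setdb1 (0.83) and Atrx (0.60), and after 5 h Atrx (4.24). Of the 21, those after 2 h of DRB were Suv39h1 at 0.66, Cbx1 at 0.67, Cbx3 at 0.02 and Cbx5 at 0.67. After 5 h they were Setdb1 at 2.44, Suv39h1 at 2.68, Ehmt1 at 0.68, Cbx1 at 1.62 and Cbx3 at 2.86. After 1 h of triptolide they were Suv39h1 at 1.17 and Atrx at 0.60, and after 2 h Setdb1 at 5.44, Ehmt1 at 2.71, Cbx1 at 3.92, Cbx5 at 1.42 and Atrx at 4.53. From 2 h to 5 h of DRB they were Setdb1 at 1.61, Suv39h1 at 2.02 and Cbx1 at 0.95, and for DRB beside triptolide at 2 h Cbx1 at -3.25 and Cbx5 at -0.75.

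Quantile normalization left 0 genes lower after 2 h of DRB, 2 after 5 h, 3 and 2 for triptolide at 1 h and 2 h, and 3 from 2 h to 5 h of DRB, with 2 higher between the triptolide times. Of the 18 differences within the size rule 11 changed sign, among them after 2 h of DRB Trim28 (0.47), Setdb1 (0.47) and Atrx (0.35), and after 5 h Atrx (1.35). Of the 45 past it 13 reversed: after 2 h of DRB Suv39h1 at 0.30, Cbx1 at 0.16 and Cbx5 at 0.25, and after 5 h Setdb1 at 0.39, Suv39h1 at 0.29 and Cbx3 at 0.26. After 1 h of triptolide Suv39h1 was at 1.73 and Atrx at 1.24. After 2 h Setdb1 was at 1.73, Ehmt1 at 0.22, Cbx1 at 0.45 and Atrx at 1.13, and DRB beside triptolide at 2 h gave Cbx1 at -0.29. Among genes with at least 100 net reads without drug, Spearman's rho of length and share kept over 3197 genes was 0.20 after 5 h of DRB (0.15 with the minimum of 20) and 0.24 and 0.26 for triptolide at 1 h and 2 h (0.10 and 0.13). Depth limits Ehmt2, Suv39h1 and Cbx3 most, with 52, 89 and 128 net reads without drug.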
